A study of Mus musculus with 6 samples.

Results

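The p53 target genes described here are Mdm2, Cdkn1a, Ccng1, Trp53inp1, Perp, Gadd45a, Phlda3, Zmat3 and Sesn2, measured in mouse thymus. They were chosen by name, together with Trp53, as every probe set whose platform annotation gave exactly 1 of these symbols. That rule found 16 of the 45101 probe sets on the array, for 9 of the 10 listed genes (of 18193 genes with a probe set of 1 symbol), and Trp53 itself was not analysed here. The groups were thymus of adult females from a cross of AKR/J with FVB/NJ (the AKR cross, 3 arrays) and from a cross of DBA/2J with FVB/NJ (the DBA cross, 3 arrays). All mice were F1 hybrids sharing the FVB/NJ parent, no treatment is labelled, and the crosses differed in the other parental strain. The series set out to find basal expression differences between these genotypes. Animals were killed under Avertin anaesthesia and the tissue was snap-frozen. Whether each array is a separate animal is not stated in the labels, and p-values here reflect only array-to-array spread, part or all of which may be technical.

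The tumour suppressor p53 is a transcription factor that is kept at a low level in unstressed cells, because the ubiquitin ligase Mdm2 marks it for degradation. DNA damage lifts that brake, and p53 then raises genes that halt the cell cycle, promote cell death, aid repair or restrain growth, along with Mdm2 itself. Thymocytes cut and rejoin their own DNA when they build T cell receptors and die readily after irradiation through p53, and mice without p53 are known for thymic lymphoma.

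Between the crosses, 2 of the 9 target genes passed the test. Mdm2 and Ccng1, which encodes cyclin G1, were lower in the AKR cross on 2 probe sets each, by 1.17-fold to 1.33-fold. Cdkn1a, Trp53inp1, Perp, Gadd45a, Phlda3, Zmat3 and Sesn2 were not called. Calls rest on limma's adjusted p under 0.05, by the Benjamini-Hochberg method over all 27385 tested probe sets. Of 15 tested probe sets of the target genes, 4 (26.7%) were called, against 27.2% of all tested probe sets, so the share called was near the background. All 4 were lower in the AKR cross, a direction in which 15.0% of all tested probe sets were called. By limma 0 were called higher in the AKR cross, against 12.2% of all tested probe sets, and 0 rose at an unadjusted p under 0.05. The median difference of the 15 was -0.11, and that of all tested probe sets was 0.01, on the log2 scale as AKR cross minus DBA cross. The median size of the difference, without its sign, was 0.15 for the target genes and 0.18 for all tested probe sets. The arrays of the crosses did not overlap for 4 of the 15 target gene probe sets, against 44.7% of all tested probe sets.

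**Figure D1:**
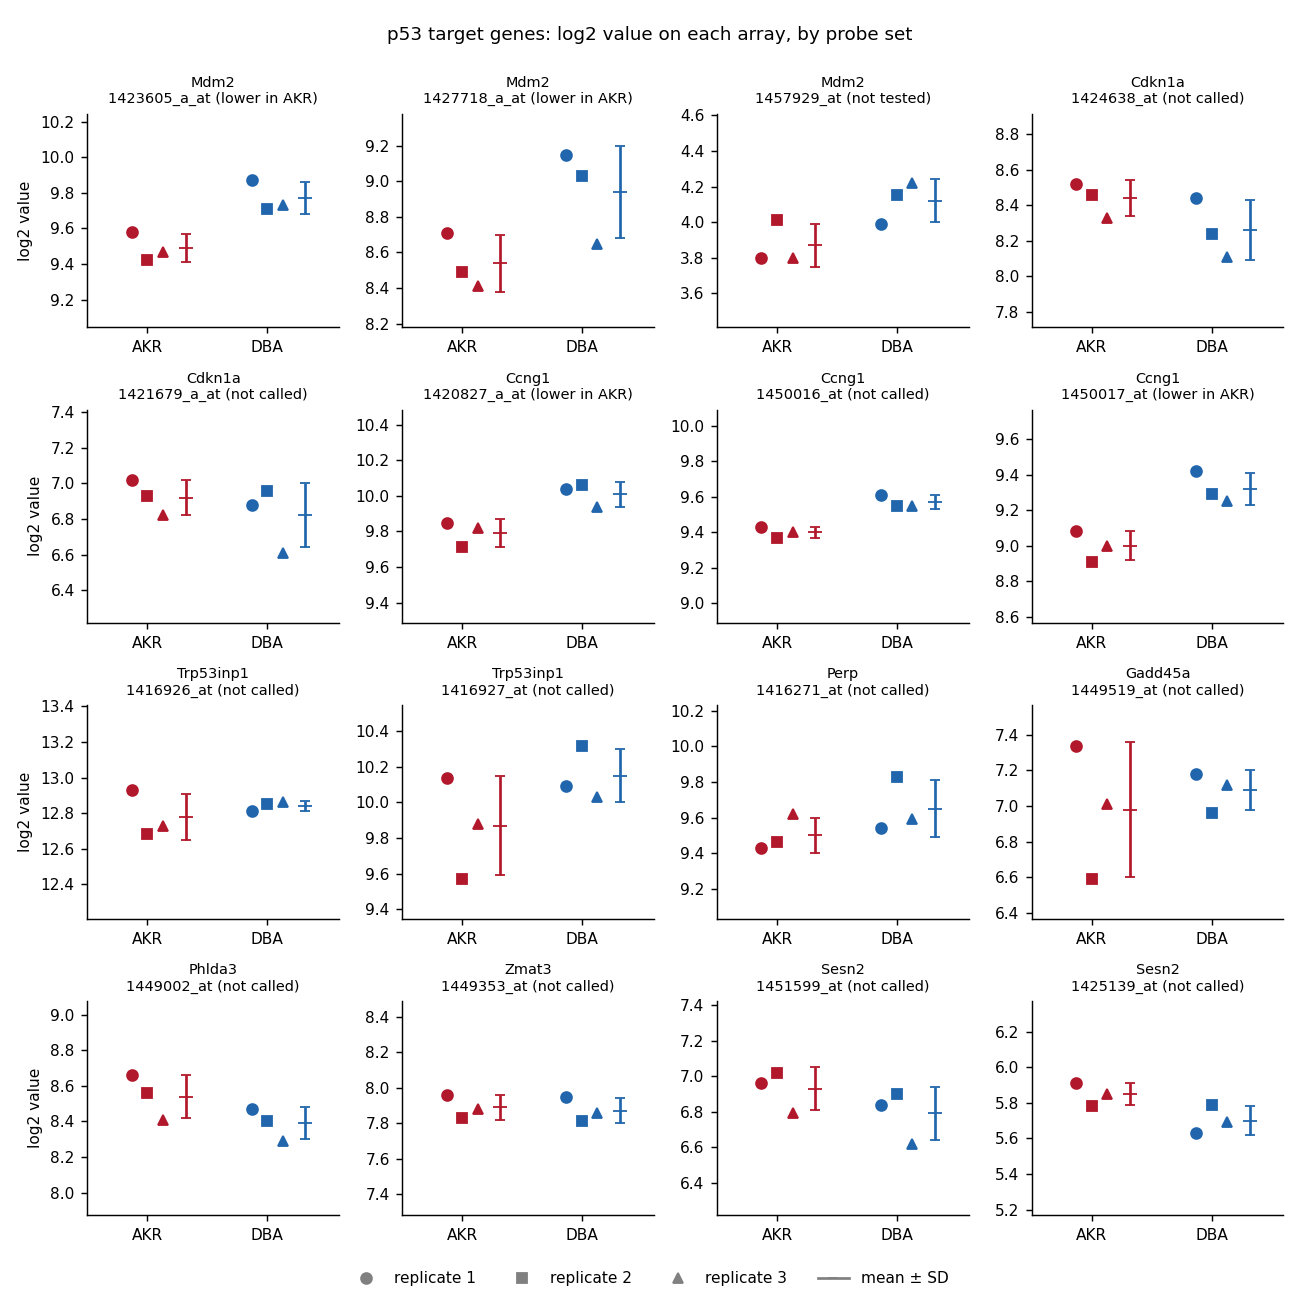
Log2 value of each of the 16 probe sets on each array, with the AKR cross left of the DBA cross, 1 symbol per replicate and the mean ± SD (n = 3) beside the points. Each panel has its own vertical axis spanning the same log2 distance. The arrays of the crosses are apart for Mdm2 1423605_a_at and for the 3 Ccng1 probe sets, and overlap in the 12 other panels.

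Promoter stretches of 4 target genes are shown because they hold the p53 half-site, the 10-base motif that p53 binds in pairs. The letters come from RefSeq promoter windows of build GRCm38.p6, each 250 bases before an annotated start to 50 bases after it. Such windows existed for 6 of the 9 genes (7 windows, 2 of them for Cdkn1a). A script searched them for the half-site, which reads the same on both strands. It was found in 4 of the 7 target gene windows, 1 window for each of 4 genes, and in 8.36% of all 32851 windows of this length. The windows of Mdm2, Ccng1 and Gadd45a held 1 half-site each and not a pair. Sequence outside the windows was not searched, so this does not say whether these genes hold a pair elsewhere. Capitals mark exact matches to the half-site only, and near matches stay in lower case, as directly after GAACATGTCT in Cdkn1a. Which 10-base stretches p53 binds as a pair was not tested. Each stretch of 70 bases runs 5′ to 3′ on the strand of its gene. Mdm2 and Ccng1 were called in the thymus comparison, and Cdkn1a and Gadd45a were not.
Mdm2: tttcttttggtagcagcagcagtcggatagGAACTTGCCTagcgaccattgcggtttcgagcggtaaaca
Ccng1: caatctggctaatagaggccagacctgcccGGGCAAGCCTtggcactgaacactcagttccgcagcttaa
Cdkn1a: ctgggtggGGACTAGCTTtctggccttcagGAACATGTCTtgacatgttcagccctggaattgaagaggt
Gadd45a: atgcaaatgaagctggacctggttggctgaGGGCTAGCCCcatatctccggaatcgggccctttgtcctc
The Mdm2 stretch lies at chr10:117710905-117710974 on the minus strand, and its half-site begins 186 bases before the start. The Ccng1 stretch lies at chr11:40755432-40755501 on the minus strand, with its half-site beginning 185 bases before the start. The Cdkn1a stretch, at chr17:29090898-29090967 on the plus strand, holds 2 half-sites. They begin 73 and 51 bases before the more upstream of the 2 annotated Cdkn1a starts that had a window. The Gadd45a stretch lies at chr6:67037408-67037477 on the minus strand, with a half-site beginning 40 bases before the start. The windows of Phlda3 and Sesn2 and the other window of Cdkn1a did not hold these letters. A match is a description of the sequence and not a measured binding site, and genes called and not called both held one.

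Mdm2, the ubiquitin ligase that restrains p53 and is raised by it, was lower in the AKR cross. Its brightest probe set, 1423605_a_at, had log2 values of 9.58, 9.42 and 9.47 on the AKR arrays, against 9.87, 9.71 and 9.73 on the DBA arrays. Every AKR array lay below every DBA array. The difference was -0.28 ± 0.07 (SE), a level 1.21-fold lower in the AKR cross (adjusted p = 0.023, limma). A further probe set, 1427718_a_at, had 8.71, 8.49 and 8.41 in the AKR cross, against 9.15, 9.03 and 8.65 in the DBA cross. Here the groups overlapped, since DBA replicate 3 lay below AKR replicate 1. That difference was -0.41 ± 0.13 (SE), or 1.33-fold lower, and it passed narrowly (adjusted p = 0.0489, limma). The remaining Mdm2 probe set, 1457929_at, averaged 3.87 ± 0.12 in the AKR cross, against 4.12 ± 0.12 in the DBA cross (SD, n = 3 each). It lay below the 40th percentile on all 6 arrays and was not tested.

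Ccng1 encodes cyclin G1, a p53 target that binds a regulatory subunit of protein phosphatase PP2A and Mdm2. Its 3 probe sets come from 1 annotated accession, so they repeat the measurement of 1 transcript and are no replicates of the cross. Probe set 1450017_at had 9.08, 8.91 and 9.0 in the AKR cross, against 9.42, 9.29 and 9.25 in the DBA cross. The difference was -0.32 ± 0.08 (SE), which was 1.25-fold lower in the AKR cross (adjusted p = 0.0152, limma). Probe set 1420827_a_at had 9.85, 9.71 and 9.82 in the AKR cross, against 10.04, 10.06 and 9.94 in the DBA cross. This 1.17-fold difference of -0.22 ± 0.07 (SE) was also called (adjusted p = 0.0393, limma). Probe set 1450016_at had 9.43, 9.37 and 9.40 in the AKR cross, against 9.61, 9.55 and 9.55 in the DBA cross, and its difference of -0.17 was not called (adjusted p = 0.0759, limma). On all 3 probe sets every AKR array lay below every DBA array.

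The calls of Mdm2 and Ccng1 lay close to the threshold and depended on which arrays were kept. Calls over all tested probe sets fell as well, from 27.2% with all arrays to between 18.8% and 23.1% with 1 array left out. Without AKR replicate 2, where 18.8% of all were called, 0 of the 4 were called by limma. There 4 target gene probe sets were lower at an unadjusted p under 0.05. The 1450017_at call of Ccng1 was lost only there among the 6 arrays left out in turn (adjusted p = 0.0524, limma). The 1423605_a_at call of Mdm2 was lost without AKR replicate 2 (0.0745), AKR replicate 3 (0.0614) or DBA replicate 1 (0.0731). The 1427718_a_at call was lost without AKR replicate 2 (0.127), AKR replicate 3 (0.134), DBA replicate 1 (0.14) or DBA replicate 2 (0.142). The 1420827_a_at call was lost without AKR replicate 1 (0.0535), AKR replicate 2 (0.118), AKR replicate 3 (0.0687), DBA replicate 1 (0.0974) or DBA replicate 2 (0.124). Quantile normalization, testing without a filter on dim probe sets, and a fit without the trend in the variance each left 2 calls, Mdm2 1423605_a_at and Ccng1 1450017_at. In each of the 13 other settings run, all 5 of these probe sets stayed lower in the AKR cross.

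**Figure D2:**
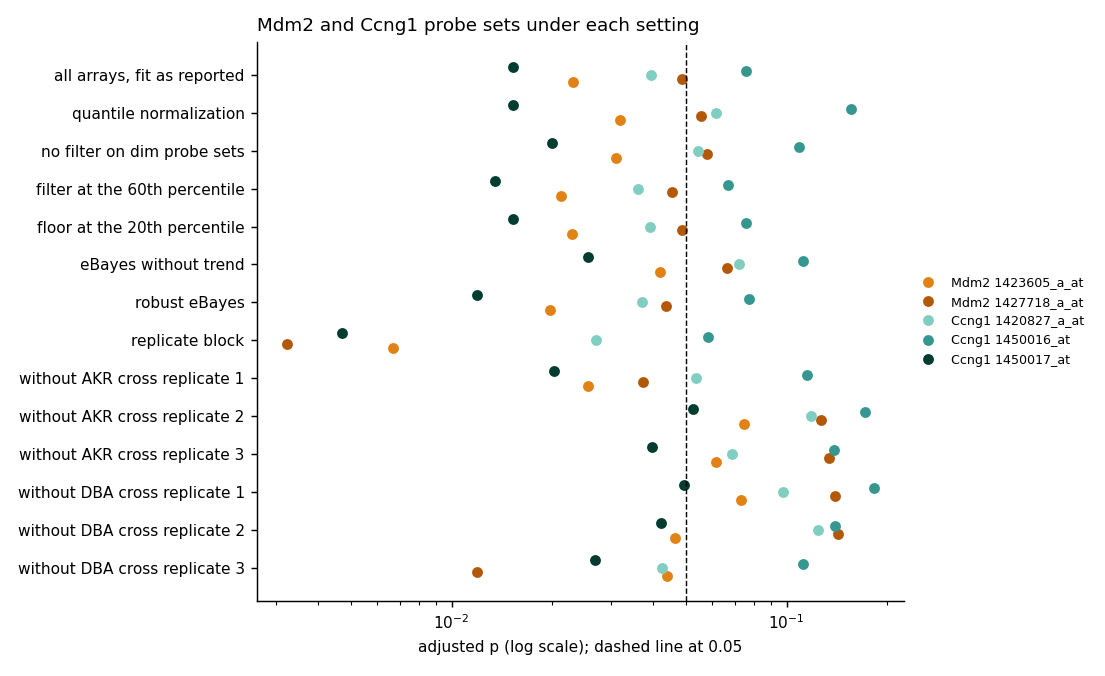
Adjusted p (limma, log axis) of the 2 tested Mdm2 and 3 Ccng1 probe sets in the reported fit and under 13 other settings, with a dashed line at 0.05. Ccng1 1450017_at passes in every setting except without AKR replicate 2, where it stands at 0.0524, and Ccng1 1450016_at passes in none.

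The arrest genes were not called. Cdkn1a encodes p21, the inhibitor of cyclin-dependent kinases that carries out much of the p53 cell cycle arrest. Its brighter probe set, 1424638_at, had 8.52, 8.46 and 8.33 in the AKR cross, against 8.44, 8.24 and 8.11 in the DBA cross. Those values overlapped, and the difference was 0.18, with a 95% interval from -0.06 to 0.41 (adjusted p = 0.231, limma). The other Cdkn1a probe set, 1421679_a_at, had 7.02, 6.93 and 6.82 in the AKR cross, against 6.88, 6.96 and 6.61 in the DBA cross (difference 0.10, interval -0.16 to 0.36). Its difference came to -0.0026 without DBA replicate 3. Gadd45a encodes a stress sensor that binds p21 and the replication clamp PCNA. It had 7.34, 6.59 and 7.01 in the AKR cross, against 7.18, 6.96 and 7.12 in the DBA cross. The AKR arrays lay on both sides of all the DBA arrays, and the interval of the difference ran from -0.49 to 0.28, the widest among the 15 tested probe sets. Without AKR replicate 2, the lowest array, the difference of -0.11 came to 0.09.

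The genes tied to cell death were not called with all arrays. Trp53inp1, which encodes a stress-induced nuclear protein that promotes p53 activity and autophagy, had 2 probe sets from 1 annotated accession. Probe set 1416926_at had 12.93, 12.68 and 12.73 in the AKR cross, against 12.81, 12.85 and 12.86 in the DBA cross, an overlap with an interval of -0.20 to 0.08. Probe set 1416927_at had 10.14, 9.57 and 9.88 in the AKR cross, against 10.09, 10.32 and 10.03 in the DBA cross. AKR replicate 1 lay among the DBA arrays and AKR replicates 2 and 3 lay below them. The difference of -0.28 ± 0.13 (SE) was not called (adjusted p = 0.149, limma), and without AKR replicate 1 it was -0.42 and called (0.034). Perp, a membrane protein of desmosomes that p53 raises in dying cells and p63 in epithelia, had 9.43, 9.46 and 9.62 in the AKR cross. Its DBA arrays stood at 9.54, 9.83 and 9.59, so the groups overlapped, and the interval of the difference of -0.15 ran from -0.36 to 0.06. Phlda3 encodes a protein that competes with the survival kinase AKT for membrane lipids. It had 8.66, 8.56 and 8.41 in the AKR cross, against 8.47, 8.40 and 8.29 in the DBA cross, with an interval of -0.05 to 0.36.

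The last pair of genes act on RNA and on growth. Zmat3 encodes a zinc finger protein that binds RNA, and its values of 7.96, 7.83 and 7.88 in the AKR cross nearly coincided with 7.95, 7.81 and 7.86 in the DBA cross. The interval of its difference of 0.02 ran from -0.17 to 0.20, and the sign turned (-0.02) without AKR replicate 1 or DBA replicate 2. Sesn2 encodes a sestrin, a sensor of leucine that restrains the growth kinase complex mTORC1. Its probe set 1451599_at had 6.96, 7.02 and 6.79 in the AKR cross, against 6.84, 6.90 and 6.62 in the DBA cross. Its other probe set, 1425139_at, had 5.91, 5.78 and 5.85 in the AKR cross, against 5.63, 5.79 and 5.69 in the DBA cross. Both differed by 0.14 and overlapped between the crosses, with intervals of -0.11 to 0.39 and -0.07 to 0.36. None of these intervals shows that the crosses were alike. The intervals of the 11 uncalled probe sets reached at most 0.59 on the log2 scale in either direction.

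**Figure D3:**
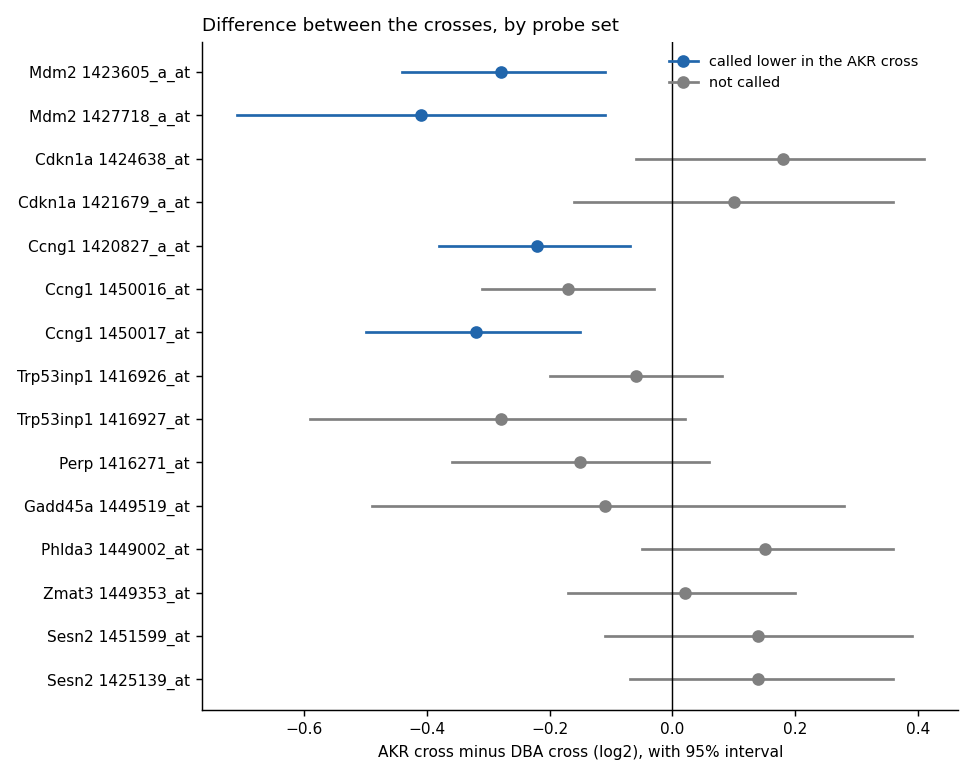
Difference between the crosses (AKR cross minus DBA cross, log2) with its 95% interval for each of the 15 tested probe sets, 3 arrays per cross. The 4 called probe sets, of Mdm2 and Ccng1, lie left of 0, while those of Cdkn1a, Phlda3, Zmat3 and Sesn2 lie right of 0 and were not called.

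The wider p53 pathway was described from 5 lists with 64 genes, of which 54 had a tested probe set. Of 104 tested probe sets, 12 were called higher and 18 lower in the AKR cross (28.8% in all), close to the 27.2% of all tested probe sets. The median difference over them was -0.04. Without AKR replicate 2 these counts were 7 and 10, and without DBA replicate 3 they were 7 and 11. The count called lower was 11 without AKR replicate 1 and 9 without DBA replicate 2. By gene, 10 had a probe set called higher and 13 one called lower, with Hipk2 and Usp7 counted in both. By list, the share of probe sets called was 22.7% for upstream kinases and damage sensors and 36.4% for regulators and relatives. It was 40% for death-promoting, 30% for cell cycle and 10.5% for repair and metabolism targets.

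Damage sensors and kinases upstream of p53 had 1 probe set called higher and 4 lower of 22, with a median of -0.14. Atm encodes the kinase that answers double-strand breaks. Its probe set 1421205_at averaged 8.84 ± 0.12 in the AKR cross, against 9.25 ± 0.09 in the DBA cross (SD, n = 3 each). It was 1.33-fold lower in the AKR cross (-0.42 ± 0.09, SE, adjusted p = 0.00728, limma), and its other probe set was not called (-0.14). Trp53bp1, which encodes the repair factor 53BP1, was 1.22-fold lower on 1 of 4 tested probe sets (-0.29 ± 0.07, SE, adjusted p = 0.0125, limma). The 3 other tested probe sets of Trp53bp1 ran from -0.04 to 0 and were not called. Hipk2, a kinase of p53, was lower on 1456022_at (-0.76, adjusted p = 0.00419, limma) and higher on 1448631_a_at (0.36, 0.0301). The 4 other tested probe sets of Hipk2 ran from -0.21 to 0.17 and were not called, so its probe sets disagreed. The call on 1448631_a_at was lost without AKR replicate 1 (0.051), AKR replicate 2 (0.102), DBA replicate 1 (0.0792) or DBA replicate 3 (0.096).

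Regulators and relatives of p53 had 2 probe sets called higher and 10 lower of 33, with a median of -0.12. Trp63 encodes p63, a relative of p53 that maintains stratified and thymic epithelium. Its probe set 1418158_at had 7.29, 7.67 and 7.66 in the AKR cross, against 8.07, 8.47 and 8.46 in the DBA cross. Every AKR array lay below every DBA array, at a level 1.73-fold lower (-0.79 ± 0.14, SE, adjusted p = 0.00351, limma). Of its 3 other probe sets, 2 were called lower as well, and the 4 differences ran from -0.87 to -0.37. Crebbp, a coactivator of p53, differed by -1.78 ± 0.20 (SE) on 1436983_at, where it was 3.43-fold lower (adjusted p = 0.000313, limma). The AKR arrays there read 8.16, 7.67 and 8.64, against 9.87, 9.92 and 10.01 on the DBA arrays. Its 2 other tested probe sets differed by -0.12 and -0.19 and were not called. The large difference thus belonged to 1 probe set and was not shown for the gene as a whole. Whether sequence differences between the parental strains affect the reading of single probe sets was not tested. Usp7 encodes a deubiquitinase that stabilises Mdm2 and p53. It was called lower on 4 of 7 probe sets (1437118_at, -0.71, adjusted p = 0.0026, limma) and higher on 1 (1419921_s_at, 1.04, 0.000818), while 2 were not called (-0.16 and -0.03). Probe set 1419920_s_at, from the same annotated accession as 1419921_s_at and brighter, was among those called lower (-0.23). The Usp7 probe sets thus disagreed. Ppp1r13l encodes iASPP, an inhibitor of p53, and was 1.74-fold higher on 1459592_a_at (0.80 ± 0.10, SE, adjusted p = 0.000758, limma). Its 3 other probe sets ran from -0.05 to 0.11 and were not called. Among them was 1459593_x_at (-0.05), from the same annotated accession as 1459592_a_at, so the Ppp1r13l probe sets disagreed.

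Among death-promoting targets outside the 9 genes, 6 probe sets were called higher and 2 lower of 20, with a median of 0.07. Siva1, which encodes a pro-apoptotic adaptor, had 9.79, 9.76 and 9.69 on 1418377_a_at in the AKR cross, against 9.14, 8.96 and 8.90 in the DBA cross. Those groups were apart, at a level 1.67-fold higher in the AKR cross (0.74 ± 0.08, SE, adjusted p = 0.000272, limma). A further Siva1 probe set, 1452020_a_at, was called higher (0.63), and the 2 others were not called (0.20 and -0.13). Bid, a BH3-only death protein, was higher on both tested probe sets (0.45 and 0.24, adjusted p = 0.0131 for 1448560_at, limma). Apaf1, the scaffold of the apoptosome, went the other way on 1452870_at, where it was 1.40-fold lower (-0.48 ± 0.09, SE, adjusted p = 0.00362, limma). Its other tested probe set, 1450223_at, overlapped between the crosses and was not called (-0.20). Ei24, a membrane protein of the endoplasmic reticulum, was 1.27-fold lower (-0.34, adjusted p = 0.00919, limma).

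Cell cycle targets had 2 probe sets called higher and 1 lower of 10, with a median of 0.23. Gtse1, a microtubule protein of G2 and S phase that binds p53, was 1.28-fold higher in the AKR cross (0.36, adjusted p = 0.0244, limma), and the call was lost without AKR replicate 2 (0.0818) or DBA replicate 3 (0.0791). Psrc1, a spindle protein, was 1.25-fold higher on 1425416_s_at (0.32, adjusted p = 0.0326, limma), a call lost on leaving out any of 5 arrays, with adjusted p up to 0.0901. Only leaving out DBA replicate 3 kept it. The other tested Psrc1 probe set, 1417323_at, was not called (0.28, adjusted p = 0.0701, limma). Plk2, a stress-responsive kinase, was 1.30-fold lower (-0.38, adjusted p = 0.0299, limma), a call lost without AKR replicate 1 (0.0641), AKR replicate 2 (0.0995), DBA replicate 2 (0.0783) or DBA replicate 3 (0.099). Repair and metabolism targets had 1 probe set called in each direction of 19, with a median of 0.03. Rrm2b, the p53-induced subunit of ribonucleotide reductase, was 1.36-fold lower on 1437476_at (-0.44 ± 0.10, SE, adjusted p = 0.0096, limma). Its other tested probe set, 1433773_at, was not called (-0.30, 0.0547). Polk, a translesion polymerase, was 1.25-fold higher on 1449483_at (0.32, adjusted p = 0.021, limma), and the call was lost without AKR replicate 1 (0.0533), AKR replicate 2 (0.0728), DBA replicate 2 (0.0518) or DBA replicate 3 (0.0592). The other Polk probe set, 1419501_at, overlapped and was not called (0.08, adjusted p = 0.561, limma).

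**Figure D4:**
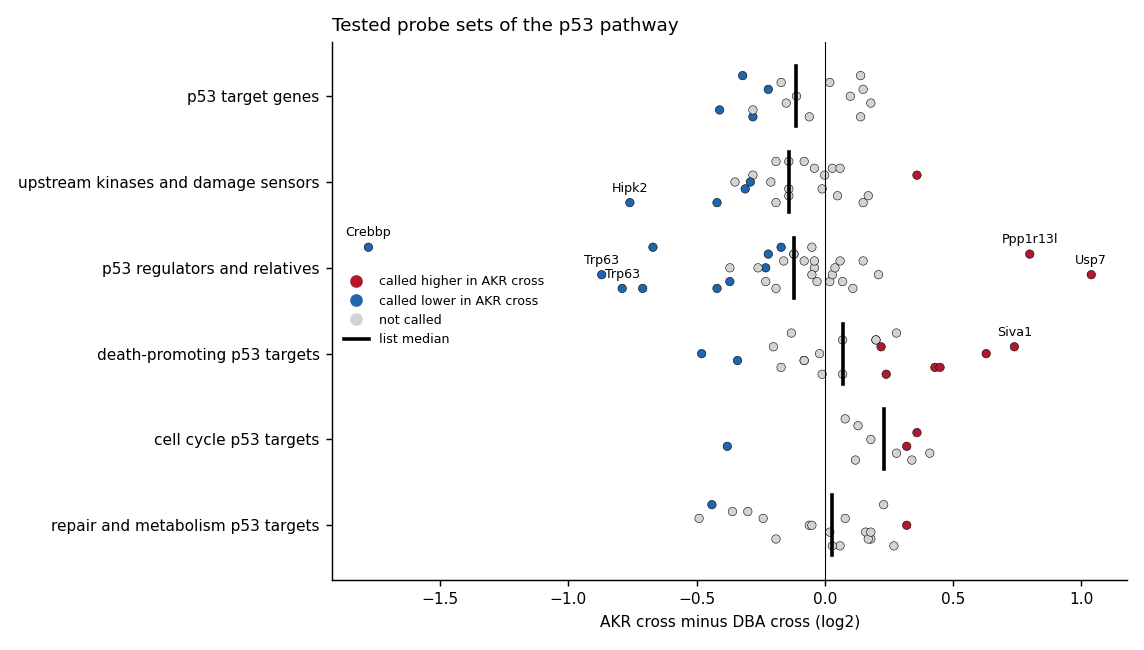
Difference between the crosses (AKR cross minus DBA cross, log2) for each tested probe set of the 9 target genes (15 probe sets) and of 5 pathway lists (104 probe sets). Red points were called higher and blue points lower in the AKR cross, and a bar marks each list's median, from -0.14 for upstream kinases and damage sensors to 0.23 for cell cycle targets.

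The tissue and its cell makeup were checked with marker lists, whose level is given as the mean log2 value over a list's tested probe sets on each array. Over all tested probe sets, 12.2% were called higher in the AKR cross and 15.0% lower. Thymocyte genes ran from 11.16 to 11.26 in the AKR cross and from 11.01 to 11.11 in the DBA cross, so every AKR array mean lay above every DBA array mean. Of 16 thymocyte probe sets 2 were called higher (12.5%, near the share of all) and 0 lower. These were Dntt 1420166_at (1.57) and Cd3e (0.3), and the other Dntt probe sets were not called. The list median was 0.12, against 0.01 for all tested probe sets, and the differences ran from -0.14 to 1.57. The highest, of Dntt 1420166_at, lifts the AKR means in part. Arrays did not overlap for 7 of the 16, near the 44.7% of all tested probe sets, and a shift of the whole list was not tested. Cell division genes moved with the cross, from 10.48 to 10.64 in the AKR cross and from 10.27 to 10.29 in the DBA cross, with 9 of 15 called higher and 0 lower. Rrm2, the S phase subunit of ribonucleotide reductase, differed by 0.52 ± 0.05 (SE) on 1416120_at (adjusted p = 0.000188, limma), and its 2 other probe sets were called higher as well (0.29 and 0.21). B cell genes also moved, from 7.06 to 7.19 in the AKR cross and from 6.55 to 6.74 in the DBA cross, with 6 of 8 called higher and 0 lower. Thymic epithelial genes overlapped, from 9.07 to 9.24 in the AKR cross and from 9.18 to 9.29 in the DBA cross. Of 17 epithelial probe sets 2 were called higher and 5 lower. Cldn4 differed by 1.24 and Epcam by -0.59 on 1416579_a_at, while the other Epcam probe set was not called (0.15). Myeloid and dendritic genes ran from 8.61 to 8.82 in the AKR cross and from 8.83 to 9.02 in the DBA cross, so the array means were only just apart. Of 9 probe sets 1 was called higher (Lyz2, 0.27) and 2 lower, among them S100a8 (-0.96). The list median was -0.04, so the means lean on a few large differences and do not show a shift of the whole list. Fibroblast and vessel genes (0 called higher and 1 lower of 13) and fat genes (0 and 1 of 6) overlapped between the crosses, and the 1 tested red cell probe set was not called. In whole tissue, fewer cells of a type and less RNA per cell cannot be told apart. The part of thymocytes, dividing cells, B cells, myeloid cells or epithelium in the values of Mdm2, Ccng1, Trp63, Siva1 and Gtse1 was not tested.

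Facts of the whole series bear on every value above. Arrays correlated at 0.994 to 0.996 within a cross (6 pairs) and at 0.984 to 0.989 between crosses (9 pairs). All 15 tested probe sets of the target genes lay above the 40th percentile on every array, so none was tested through 1 cross alone.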

How the data were processed

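Biotin-labelled thymus RNA was hybridised to 6 single-channel Affymetrix arrays, placed in 2 groups of 3 from the sample titles. The deposited table holds log2 values for 45101 probe sets per array, made by the authors. Per the submitters' processing notes the tools were MAS5 and RMA, whose roles are not given in the sources used here. Values ran from 2.47 to 14.42 with array medians of 5.92 to 5.95, so the arrays lay on nearly 1 scale. Probe set summaries of this kind can compress differences of dim probe sets. No detection calls or batches were used. The number of arrays limits the precision.

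No further normalization was applied. The 64 control probe sets were left out, and 27385 probe sets above the 40th percentile on at least 3 of 6 arrays entered a two-sided limma 3.58.1 test (R 4.3.3) by lmFit and eBayes with a variance trend. The fit was tested on simulated data. Symbols came from the platform annotation, and all 242 listed probe sets matched a RefSeq gene by Entrez identifier with 0 symbols changed. Promoter windows were searched under Python 3.11.15, and figures were drawn with matplotlib 3.10.9.

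The target genes, the 5 pathway lists (upstream kinases and damage sensors, regulators and relatives, death-promoting, cell cycle, and repair and metabolism targets) and the 8 marker lists were chosen with earlier results of these data known. From each pathway list the text names up to 3 called probe sets in each direction with the smallest adjusted p, and from marker lists up to 2. The other tested probe sets of a named gene are given beside it, by value, range or count. Trp53 and listed genes with no annotated probe set were not analysed here. The alternatives were quantile normalization, 2 filters, a floor at the 20th percentile, 2 variance models, the replicate number as a block, and each array left out.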

Additional observations from a re-analysis of the deposited data

How the results depend on the processing

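Of the tested target gene probe sets (15, or 14 with the filter at the 60th percentile and 16 without a filter), 0 were called higher in the AKR cross by limma under any of the 13 alternatives, and 0 to 1 rose at an unadjusted p under 0.05. The count called lower, 4 with all arrays, was 2 after quantile normalization, 2 without a filter and 2 without the variance trend, and ran from 0 to 4 with 1 array left out. The filter at the 60th percentile, the floor and robust variance estimation kept 4. The direction of calls over all tested probe sets also depended on normalization. After quantile normalization 53.3% of them were higher in the AKR cross, against 44.8% in the reported fit. The median difference of all tested probe sets was then 0.04, against 0.01. The counts of pathway probe sets ran from 7 to 10 higher and from 9 to 17 lower with 1 array left out, against 12 and 18 with all arrays. Probe sets called in all numbered 7449, and 5161 to 6317 with 1 array left out. Signs turned with 1 array left out for Zmat3 (-0.02 without AKR replicate 1 or DBA replicate 2), Gadd45a (-0.29 to 0.09), Cdkn1a 1421679_a_at (-0.0026 to 0.17) and the red cell gene Alas2 (-0.62 to 0.11, called lower only without AKR replicate 1, adjusted p = 0.0415, limma). Fewer arrays were fitted in these cases, and for the other changes the cause was not tested.

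No label states a batch or that same-numbered arrays were paired, so the numbers were not taken to pair the arrays. Deviations of same-numbered arrays correlated at 0.39, 0.07 and 0.37 for numbers 1, 2 and 3, and those of unlike numbers at -0.38 to 0.07. Of 6 arrays, 5 correlated best with their own number, which is a hint from the data and not from the design. With the replicate number as a block 9839 probe sets were called, 4 target gene probe sets were lower and 0 higher, and 25 pathway probe sets were lower and 17 higher.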
